A study of Danio rerio with 6 samples.

Results

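The TLR4 paralogs of the zebrafish were read by the wells TLR4a, TLR4ba and TLR4bb of a SYBR Green real-time PCR array, 3 of the 326 gene wells of the plate. They were chosen by their plate symbols, with the differences between NOD1 and control already known, so their values are given as a description, with no p-value, and their place among the calls of the whole plate is stated once and supports nothing. The embryos (Danio rerio) were taken at 24 hours post fertilization (hpf) after microinjection of ptGFP1-NOD1 (the NOD1 group, 3 biological replicates) or of the parent plasmid ptGFP1 without an insert (the control group, 3 biological replicates), so both groups had received plasmid. RNA was total RNA from pools of about 150 to 200 whole embryos, with 1 plate for each replicate. The promoter and cell types that drive NOD1, and whether a replicate was a separate spawning, are not stated in the labels, so the spread between plates may be partly technical.

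TLR4 is the Toll-like receptor that in mammals detects lipopolysaccharide of Gram-negative bacteria, together with its partners MD-2 and CD14, and signals through the adaptors MyD88 and TRIF to NF-kB and interferon regulatory factors. Zebrafish carry several copies of the receptor gene, and in fish the link between TLR4 and lipopolysaccharide is weaker and less direct than in mammals. NOD1 is a cytoplasmic receptor for fragments of bacterial peptidoglycan that signals through the kinase RIPK2. The series thus set a transcript panel of immune genes against a raised level of a different bacterial sensor.

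In the RefSeq gene table of assembly GRCz12tu, tlr4ba, tlr4al and tlr4bb lie next to each other on chromosome 13, with no other listed gene between them. The plate's accessions matched tlr4ba for the TLR4ba well and tlr4bb for the TLR4bb well. The accession of the TLR4a well was not in that table, and its symbol is listed there only as a synonym of tlr4ba, the gene of the TLR4ba well, while "tlr4ba" is itself a synonym of tlr4al. Which of the neighbouring genes the TLR4a well reads was therefore not settled, and the wells are called by their plate symbols. The sources used here give no primer sequences, so amplification of more than 1 paralog by a primer pair was not tested.

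Transcripts were read as threshold cycles (Ct), the PCR cycle at which the dye signal passes a set brightness. An earlier Ct means more template, and 1 cycle earlier is about 2-fold more. The number of genes with a Ct under 35 was 314 to 321 per plate, and the 6 plates' median Ct lay between 26.3 and 26.6. The genomic DNA control wells and the blank well had no Ct on any plate. The reverse transcription control wells averaged a Ct of 21.50 ± 0.14 in NOD1 and 21.18 ± 0.18 in control plates (SD, n = 3 each). The positive PCR control wells averaged 18.14 ± 0.11 and 18.04 ± 0.23. The nod1 well, the check of the injected gene, read -3.20, -1.49 and -2.26 in NOD1 plates and -10.81, -10.94 and -10.97 in control plates on the log2 scale of level relative to the reference genes, a difference of 8.59 ± 0.42 (SE). Carry-over of plasmid into that well was not tested. The 3 NOD1 plates were run on 1 day and the control plates on 2 other days (replicate 1 alone on its day), so the run and the group cannot be told apart for any result given here.

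TLR4bb was the paralog that was higher in NOD1 embryos. Its Ct was 25.9, 26.0 and 25.5 in NOD1 replicates 1 to 3, against 27.5, 27.7 and 27.5 in control replicates 1 to 3. Relative to the plate's mean Ct of the reference genes ACTB, GAPDH and Tuba1, a log2 scale on which higher means more transcript, its level was -7.71, -7.61 and -7.25 in NOD1 plates and -9.93, -9.92 and -10.03 in control plates. Every NOD1 plate lay far above every control plate, and the control plates were within about 0.1 of each other. The level averaged -7.53 ± 0.24 in NOD1 and -9.96 ± 0.058 in control embryos (SD, n = 3 each), a difference of 2.43 ± 0.16 (SE), or 5.40-fold. In bulk RNA from whole embryos, a change in the number of cells that express a gene and a change in transcript per cell cannot be told apart.

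TLR4ba went the other way. Its Ct was 29.4, 29.7 and 28.9 in NOD1 plates, against 27.9, 28.0 and 27.6 in control plates. Its relative level was -11.15, -11.27 and -10.68 in NOD1 plates and -10.30, -10.25 and -10.14 in control plates. The groups did not overlap, and NOD1 replicate 3 lay closest to the controls. The level averaged -11.03 ± 0.31 in NOD1 and -10.23 ± 0.079 in control embryos (SD, n = 3 each), a difference of -0.80 ± 0.18 (SE) on the log2 scale, which is 0.573 of the control level.

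TLR4a differed between the groups by less than the spread of the plates under this scaling. Its Ct was 28.5, 28.8 and 28.5 in NOD1 plates and 27.8, 28.2 and 28.0 in control plates, later in NOD1 by 0.599 cycles, while the reference genes were later by 0.655 cycles. Its relative level was -10.30, -10.40 and -10.28 in NOD1 plates and -10.20, -10.44 and -10.52 in control plates, and the groups overlapped. The averages were -10.33 ± 0.065 in NOD1 and -10.39 ± 0.17 in control embryos (SD, n = 3 each), a difference of 0.056 ± 0.13 (SE), or 1.04-fold. In the authors' deposited table the folds of NOD1 over control were 5.40 for TLR4bb, 0.573 for TLR4ba and 1.04 for TLR4a.

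**Figure D1:**
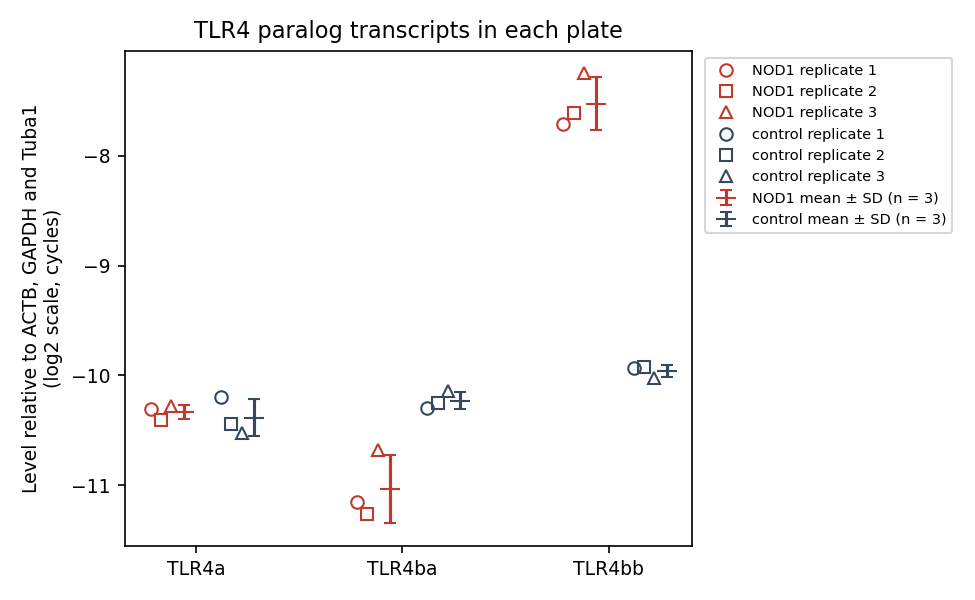
Level of each TLR4 paralog relative to ACTB, GAPDH and Tuba1 (log2 scale, in cycles) in the 3 NOD1 plates (red) and the 3 control plates (dark blue), with the mean and SD of each group. The NOD1 points lie above the control points for TLR4bb (-7.53 against -9.96 on average), below them for TLR4ba (-11.03 against -10.23) and among them for TLR4a.

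In the limma fit over all 319 genes kept on the plate, TLR4bb was called higher, TLR4ba lower and TLR4a neither, at an adjusted p under 0.05. These are 2 of 3 wells, where 52.4% of all genes were called (37% higher and 15.4% lower). The groups did not overlap for the same 2 wells, as for 63.9% of all genes (42.3% higher and 21.6% lower). By size of difference TLR4bb stood at place 27 of 319 from the top and TLR4ba at place 31 from the bottom. The TLR4ba call was lost with 18S rRNA added to the references and without control replicate 3, where its difference was -0.76. The TLR4a well was called lower on raw Ct and with quantile and cyclic loess scaling, and higher with 18S rRNA added. The contrast was known when the wells were chosen, so nothing is read from these calls.

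In control embryos the 3 wells read almost alike. On each control plate they spanned 0.368 to 0.516 cycles, with TLR4bb first on all 3 plates. TLR4a came before TLR4ba on control replicate 1 and after it on replicates 2 and 3, so the order of these 2 did not hold beyond the spread of the plates. In NOD1 embryos the 3 wells spanned 3.43 to 3.65 cycles, with the order TLR4bb, TLR4a, TLR4ba on every plate. The sources used here give no efficiency for any assay, so a level difference between wells within a group also holds any difference between the assays. A constant offset between 2 assays cancels in the change of that difference between groups. The size of the change still depends on the efficiency of each assay.

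The difference between paralogs on the same plate does not depend on the reference genes, since both wells are measured against the same mean. TLR4bb exceeded TLR4ba by 3.44, 3.65 and 3.43 cycles in NOD1 plates and by 0.368, 0.327 and 0.116 cycles in control plates. All NOD1 plates thus lay more than 3 cycles above the highest control plate's margin of 0.368. The mean margin was 3.51 ± 0.12 in NOD1 and 0.270 ± 0.14 in control embryos (SD, n = 3 each), a change of 3.24 ± 0.11 (SE from the spread of the plates) or 9.42-fold in the ratio of TLR4bb to TLR4ba. The fold takes 1 cycle as 2-fold for both assays. In NOD1 plates this margin varied less (SD 0.125) than the level of either gene (SD 0.245 for TLR4bb and 0.312 for TLR4ba), and NOD1 replicate 3 had the highest level of both.

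Between TLR4bb and TLR4a the margin was 2.59, 2.79 and 3.03 cycles in NOD1 plates and 0.268, 0.516 and 0.495 cycles in control plates. Its mean was 2.80 ± 0.22 in NOD1 and 0.427 ± 0.14 in control embryos (SD, n = 3 each), a change of 2.38 ± 0.15 (SE). TLR4ba minus TLR4a was -0.849, -0.861 and -0.397 cycles in NOD1 plates and -0.0991, 0.189 and 0.379 cycles in control plates, where the sign differed between plates. Its mean was -0.703 ± 0.26 in NOD1 and 0.156 ± 0.24 in control embryos, a change of -0.859 ± 0.21 (SE). The groups did not overlap in any of the 3 pairs. TLR4ba minus TLR4a follows from the other pairs, so the 3 are not separate observations. The share of other gene pairs without overlap was not taken, and 63.9% of all single genes did not overlap on the reference-gene scale.

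**Figure D2:**
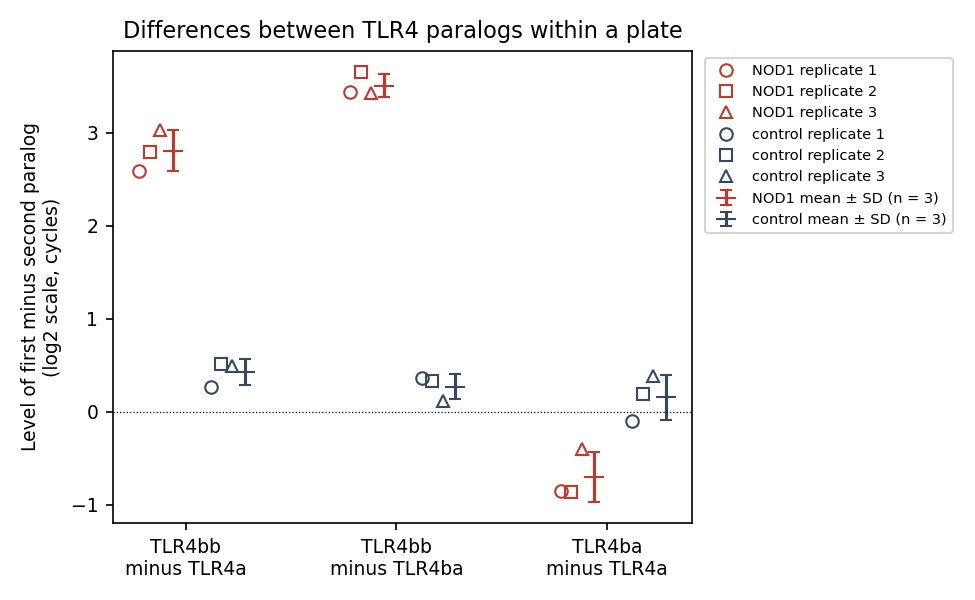
Level of the first paralog minus that of the second on the same plate (log2 scale, in cycles) for 3 pairs, in NOD1 plates (red) and control plates (dark blue), with the mean and SD of each group and a dotted line at equal levels. Control margins lie between -0.0991 and 0.516, whereas TLR4bb minus TLR4ba reaches 3.43 to 3.65 in NOD1 plates.

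How far each paralog differed from control depended on the scaling. The mean Ct of the reference genes was 18.2, 18.4 and 18.2 in NOD1 plates and 17.6, 17.8 and 17.5 in control plates, later in NOD1 by 0.655 cycles. Taken singly, ACTB, GAPDH and Tuba1 were later in NOD1 by 0.47, 0.87 and 0.63 cycles, B2M by 1.12 and 18S rRNA by 2.60. The part of these shifts in the results was not tested beyond the other scalings. Of 10 other scalings, TLR4bb was higher in NOD1 under all 10, by 1.78 (raw Ct) to 2.92 (18S rRNA added to the references) on the log2 scale, or 3.43-fold to 7.57-fold. TLR4ba was lower under all 10, by -1.86 (cyclic loess) to -0.32 (18S rRNA added). TLR4a had no settled direction, with a difference above 0 under 4 scalings and below 0 under 6, from -1.07 (quantile) to 0.54 (18S rRNA added).

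The median difference of all 319 genes moved with the scaling as well, and was 0.32 with the 3 reference genes, 0.80 with 18S rRNA added, -0.16 with the global mean, -0.34 on raw Ct, -0.091 with quantile and -0.025 with cyclic loess scaling. Measured from that median, TLR4bb was 2.12 above it, TLR4a -0.26 and TLR4ba -1.12 from it under the reference genes and under every scaling that shifts a plate as a whole. With quantile scaling TLR4bb, TLR4a and TLR4ba were 2.03, -0.98 and -1.73 from the median, and with cyclic loess 2.06, -0.92 and -1.84. The order TLR4bb, TLR4a, TLR4ba was the same with quantile and cyclic loess scaling, and the other scalings cannot change it, since they shift all genes of a plate alike. The share of all genes called moved too. Against 37% higher and 15.4% lower with the 3 reference genes, the shares were 25.1% higher and 36.1% lower with the global mean, 24.8% and 35.7% with the global median, 38.9% and 11.6% with B2M added, and 61.1% and 5.64% with 18S rRNA added. They were 32% higher and 22.6% lower with ACTB alone, 39.8% and 8.15% with GAPDH alone and 35.1% and 15.4% with Tuba1 alone. On raw Ct they were 22.3% higher and 42% lower, with cyclic loess 20.7% and 22.6%, and with quantile scaling 18.5% and 24.5%.

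**Figure D3:**
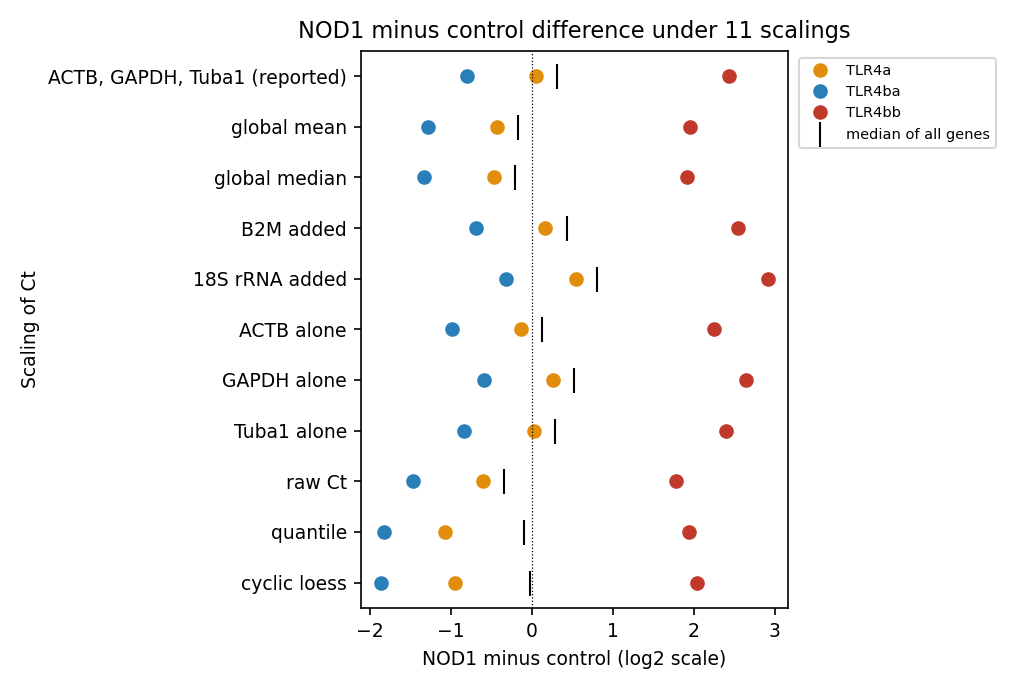
NOD1 minus control difference (log2 scale) of TLR4bb (red), TLR4a (orange) and TLR4ba (blue) and the median of 319 genes (black bars) under 11 ways of scaling the Ct values, 1 in each row. TLR4bb lies between 1.78 and 2.92 and TLR4ba between -1.86 and -0.32, while TLR4a crosses 0.

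The difference between groups also went with the Ct of a gene over the plate. With the genes in 4 groups by mean Ct, the median difference was -0.11 in the 80 genes with the earliest Ct and 1.42 on the log2 scale in the 80 with the latest. All 3 paralogs fell in the same group, with a mean Ct over the 6 plates between 26.6 and 28.9 cycles, where 79 genes had a median difference of 0.76, 48.1% were called higher and 16.5% lower. The wells' control Ct means were 27.6 for TLR4bb, 27.8 for TLR4ba and 28.0 for TLR4a. The paralogs thus started from nearly the same Ct, and none of their wells was near the ceiling of 35 cycles. The part of this trend in the size of each difference was not tested.

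**Figure D4:**
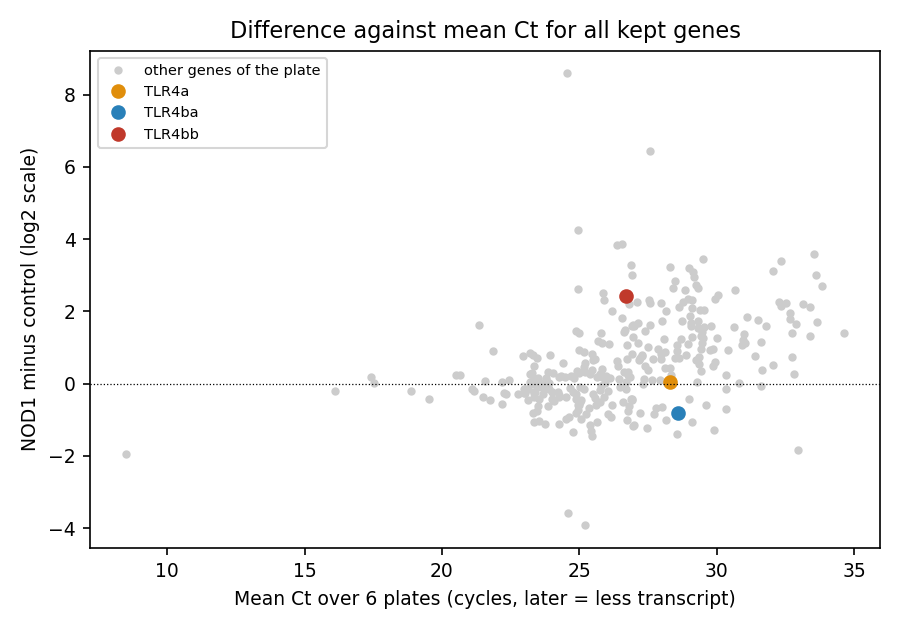
NOD1 minus control difference (log2 scale) against the mean Ct over the 6 plates (cycles) for 319 genes, 1 point each, with the TLR4 paralogs in colour. The 3 paralogs lie at similar Ct, with TLR4bb at 2.43, TLR4a at 0.056 and TLR4ba at -0.80, in a cloud whose median is 1.42 for the 80 genes of latest Ct and -0.11 for the 80 of earliest Ct.

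Set beside the 15 other Toll-like receptor wells, TLR4bb had the largest difference and TLR4ba the second lowest of 18 receptors. By level, TLR4bb, TLR4ba and TLR4a stood at places 5, 6 and 7 of 18 in control plates and at places 1, 12 and 10 in NOD1 plates, an order that also depends on the efficiency of each assay. Of the 15 others, 6 rose, 3 fell and 6 did not pass (limma, adjusted over 319 genes), where 37% of all genes were called higher and 15.4% lower. Their median difference was 0.82 on the log2 scale, at a median control Ct of 29.0. The 79 genes with a mean Ct between 26.6 and 28.9 had a median difference of 0.76, with 48.1% called higher and 16.5% lower. The 80 with the latest mean Ct had a median of 1.42, with 62.5% called higher and 2.5% lower. TLR8a, a receptor for single-stranded RNA in mammals, rose by 2.22 ± 0.36 (adjusted p = 0.00451), and TLR19, a receptor of fish, by 1.72 ± 0.15 (adjusted p = 9.10e-04). TLR2, the receptor of bacterial lipoproteins, rose by 1.59 ± 0.34 (adjusted p = 0.0111), but was at 0.19 with quantile (adjusted p = 0.658) and 0.46 with cyclic loess scaling (0.259). TLR22 rose by 1.31, the DNA sensor TLR9 by 0.92 and the double-stranded RNA sensor TLR3 by 0.82, although with quantile scaling these 3 were at -0.024, -0.19 and -0.057. TLR18 fell by 1.40 ± 0.15 (adjusted p = 0.00135), TLR5a, a flagellin receptor, by 0.68 and TLR20a by 0.60. The calls for TLR8a, TLR19 and TLR18 held under all 10 other scalings. Those for TLR3, TLR9 and TLR22 were also lost with the global mean (at 0.34, 0.44 and 0.83), the global median, raw Ct and cyclic loess, and those for TLR5a and TLR20a with B2M added (-0.57 and -0.49), 18S rRNA added (-0.19 and -0.12) or GAPDH alone. The TLR9 and TLR22 calls were lost with ACTB alone too (adjusted p = 0.0655 and 0.0695), and the TLR22 and TLR20a calls with Tuba1 alone (0.0515 and 0.0519). Single plates decided 4 of these calls. The TLR5a call was lost without NOD1 replicate 1 or 2 or control replicate 1 or 2 (adjusted p up to 0.0756) and the TLR20a call without NOD1 replicate 1 or 2 or control replicate 1 or 3 (0.0977 to 0.126). The TLR9 call was lost without NOD1 replicate 1 or 2 or control replicate 3 (0.0507 to 0.0756) and the TLR22 call without any plate other than NOD1 replicate 1 (0.0552 to 0.127). Without NOD1 replicate 1, NOD1 replicate 2 or control replicate 1 the count of lower receptors was 1. Other receptors came in pairs of symbols too, a comparison chosen after the values were seen. The change between groups in the within-plate margin was 2.30 ± 0.95 (SE) for TLR8a minus TLR8b, -1.83 ± 0.57 for TLR20a minus TLR20f and -0.48 ± 0.18 for TLR5a minus TLR5b. For the TLR4 paralogs it was 3.24 ± 0.11 for TLR4bb minus TLR4ba, 2.38 ± 0.15 for TLR4bb minus TLR4a and -0.859 ± 0.21 for TLR4ba minus TLR4a.

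**Figure D5:**
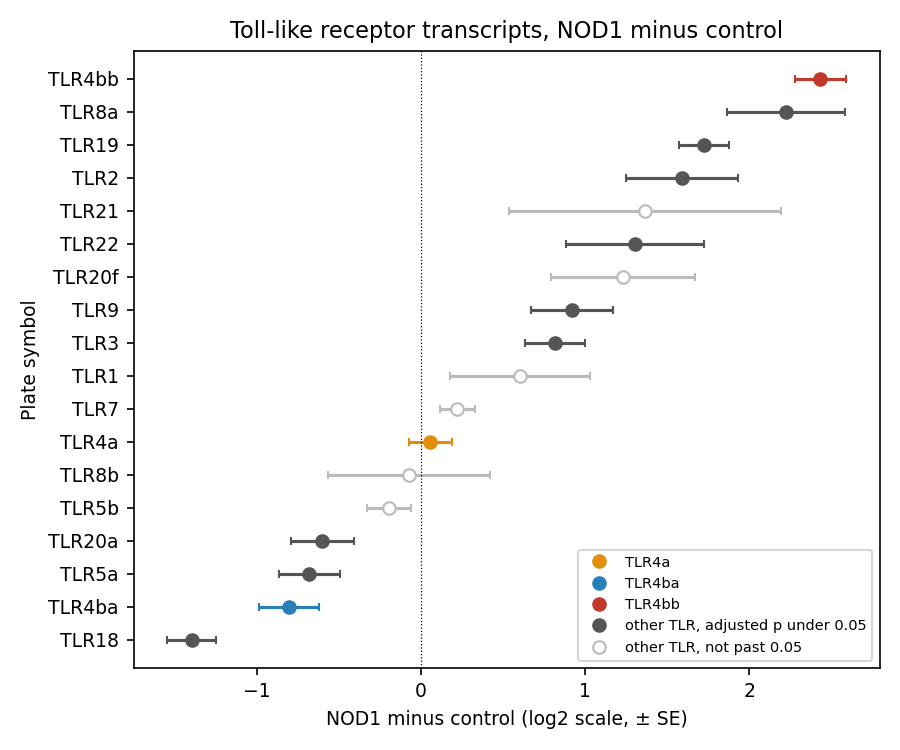
NOD1 minus control difference (log2 scale, with the SE of the limma fit) of 18 Toll-like receptor wells, sorted by value, with the TLR4 paralogs in colour, other receptors past an adjusted p of 0.05 in dark grey and the rest open. TLR4bb is at the top at 2.43 and TLR4ba is the second from the bottom at -0.80, above TLR18 at -1.40.

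Of 42 symbols listed for the relay that carries TLR4 signals in mammals, 24 wells were on the plate. None was for MD-2 or CD14. Of the 24, 6 rose, 4 fell and 14 did not pass, where 37% of all genes were called higher and 15.4% lower, and their median difference was 0.0050 on the log2 scale, against 0.32 over all genes. Their median control Ct was 25.6. The 80 genes with a mean Ct between 24.5 and 26.6 had a median difference of 0.14, with 26.25% called higher and 23.75% lower. With the 3 reference genes the adaptor wells MYD88, TIRAP, TICAM1 and TRIF stood nearer to TLR4a than to TLR4bb. So did the median of all genes, at 0.32. MYD88 was at 0.023 ± 0.13, TIRAP, which bridges TLR4 to MyD88, at -0.14 ± 0.15, and the wells TICAM1 and TRIF, names of the same adaptor, at 0.32 ± 0.12 and 0.041 ± 0.19 (adjusted p = 0.904, 0.440, 0.0696 and 0.870). In the same order, their lowest differences over the 10 other scalings were -0.63, -0.80, -0.34 and -0.61, each on raw Ct. On raw Ct TLR4a was at -0.60, and its own lowest was -1.07 with quantile scaling. SARM1, a TIR-domain protein that restrains TRIF in mammals, fell by 0.60 ± 0.20 (adjusted p = 0.0491).

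Among the kinases and ubiquitin ligases downstream, IRAK2 rose by 3.41 ± 0.62 (adjusted p = 0.00710) from Ct values close to the ceiling in control plates, and TBK1, the kinase that activates IRF3, rose by 1.61 ± 0.18 (adjusted p = 0.00154). Which zebrafish gene the IRAK2 well reads was not checked. MAP3K7IP1, the TAB1 subunit of the TAK1 complex, rose by 0.76 (adjusted p = 0.0499). IKBKE, a relative of TBK1, fell by 0.82, RIPK1 by 0.74 and IKBKG, the regulatory subunit of the IKK complex, by 0.42 (adjusted p = 0.0225, 0.00671 and 0.0455). IRAK1, IRAK4, TAK1, TRAF3, TRAF6, CHUK and IKBKB, at -0.36 to 0.27, did not pass. At the end of the relay, the inhibitor NFKBIA rose by 0.85 ± 0.17, IRF3 by 1.11 ± 0.29 and NFKB1 by 0.56 ± 0.17 (adjusted p = 0.00846, 0.0223 and 0.0390). With quantile scaling IRF3 was at -0.19 (adjusted p = 0.526). NFKB1 was called lower with quantile, at -0.67 (adjusted p = 0.0268), and with cyclic loess scaling, at -0.62 (0.0443). RELA at -0.37 and IRF7 at -0.14 did not pass. The remaining relay well, TOLLIP, at -0.013 ± 0.18 (SE), did not pass either. Of these calls, that of TBK1 held under all 10 other scalings. IRAK2 was at 1.67 with quantile (adjusted p = 0.0542) and 1.66 with cyclic loess scaling (0.0905), and 2.71 higher without control replicate 3. NFKBIA was at 0.37 with the global mean (adjusted p = 0.130), 0.33 with the global median (0.195) and 0.19 on raw Ct (0.475). IRF3, NFKB1 and MAP3K7IP1 were not called with the global mean (at 0.63, 0.077 and 0.28), the global median or raw Ct. ACTB alone lost the calls for NFKB1 and MAP3K7IP1 (adjusted p = 0.0655 and 0.0993), and Tuba1 alone those for MAP3K7IP1 and SARM1 (0.0533 and 0.0515). RIPK1, IKBKE and SARM1 were not called with 18S rRNA added (at -0.25, -0.33 and -0.11), where IKBKG was at 0.070. SARM1 and IKBKG were not called with B2M added (adjusted p = 0.0763 and 0.133). With GAPDH alone SARM1, IKBKG and IKBKE were not called (0.154, 0.374 and 0.0905). The calls for MAP3K7IP1 (any plate other than NOD1 replicate 1, adjusted p up to 0.138), SARM1 (any other than control replicate 1, up to 0.134), IKBKG (any other than NOD1 replicate 2, up to 0.132), NFKB1 (NOD1 replicates 2 and 3, control replicates 1 and 2, up to 0.117), IKBKE (each control replicate, up to 0.0721) and IRF3 (NOD1 replicate 2, control replicates 1 and 3, up to 0.0631) were lost without the single plates named. The count of higher wells was 3 without NOD1 replicate 2 or control replicate 1, and that of lower wells was 1 or 2 without any plate other than NOD1 replicate 2. With the global mean 2 relay wells were higher and 14 lower, with quantile 3 and 9, and with 18S rRNA added 15 and 0.

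Of 7 wells for inflammatory products of TLR4 signalling in mammals, 5 rose and 2 did not pass, where 37% of all genes were called higher. Their median difference was 1.80 on the log2 scale at a median control Ct of 29.6, and of the 80 genes of the plate with the latest mean Ct 62.5% were called higher, with a median of 1.42. The cytokines tnfa and tnfb rose by 2.59 ± 0.48 and 2.01 ± 0.28, and IL1B by 1.62 ± 0.24 (adjusted p = 0.00719, 0.00297 and 0.00348). The IL-12 subunits IL12a and IL12BB rose by 2.30 ± 0.43 and 1.80 ± 0.42 (adjusted p = 0.00750 and 0.0158). IL12BB was at 0.14 with quantile (adjusted p = 0.858) and 0.0098 with cyclic loess scaling (0.983), and tnfa at 1.48 with quantile (0.0839). The neutrophil chemokine IL8 at 0.97 ± 0.77 and the anti-inflammatory IL10 at 0.52 ± 0.51 did not pass.

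Markers of blood and myeloid cells, which express TLR4 in mammals, were few on the plate, with 3 of 18 listed. SPI1, the transcription factor of myeloid progenitors, rose by 0.81 ± 0.19 and CEBPB by 1.48 ± 0.18, whereas the macrophage growth factor receptor CSF1R fell by 1.17 ± 0.16 (adjusted p = 0.0146, 0.00178 and 0.00271). SPI1 was at 0.33 with the global mean (adjusted p = 0.122), 0.29 with the global median (0.208), 0.16 on raw Ct (0.484) and 0.62 with quantile scaling (0.0628), and its adjusted p without control replicate 3 was 0.0507. The summed linear level of the 3 markers ranged from 0.0102 to 0.0142 in NOD1 plates and from 0.00816 to 0.00907 in control plates, relative to the reference genes, and none was at the ceiling. SPI1 had the highest level of the 3, at -7.11 in NOD1 and -7.92 in control embryos on average. The higher sum in NOD1 thus does not speak for CSF1R, which fell. The sum was taken with the 3 reference genes only, and it adds assays whose efficiencies are not given. On raw Ct SPI1, CEBPB and CSF1R differed by 0.16, 0.83 and -1.82, so a higher sum is not claimed for other scalings. The part of the markers in the paralog differences was not tested.

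Among the other genes of the plate, those nearest in pattern were found by the root mean square difference over the 6 plates, after each gene was centred on its control mean. Of 315 candidates, BIRC6, a large inhibitor-of-apoptosis protein, was the nearest to TLR4bb at 0.135 (r = 0.994), followed by the chemokine CCL-C24m at 0.247 and the viral RNA sensor RIG-I at 0.260, where the median candidate was at 1.55. With the 3 reference genes BIRC6 differed by 2.45 ± 0.12 (SE) between groups, and TLR4bb by 2.43. The lowest differences over the 10 other scalings fell under unlike scalings. They were 1.78 for TLR4bb and 1.67 for RIG-I, both on raw Ct. For BIRC6 and CCL-C24m they were 1.14 and 1.03, under quantile or cyclic loess scaling. TLR4bb was at 1.94 with quantile and 2.04 with cyclic loess scaling. TLR4ba was nearest to the JNK-family kinase MAPK9 at 0.0820 (r = 0.984), SOCS5, a suppressor of cytokine signalling, at 0.0967 and RIPK2, the kinase that relays NOD1 signals, at 0.137, with a median candidate at 0.885. These 3 differed by -0.84, -0.75 and -0.92 on the log2 scale. TLR4a was nearest to MYD88 at 0.115, IRF2BP2b at 0.124 and TRAF4b at 0.124, with r of 0.43 to 0.46 and a median candidate at 0.615. Across the 10 other scalings the lowest difference was -0.63 for MYD88, -0.52 for IRF2BP2b and -0.71 for TRAF4b, each on raw Ct. On raw Ct TLR4a was at -0.60, and its own lowest was -1.07 with quantile scaling. These r values over 6 plates mostly carry the step between groups and the plates' shared reference mean, and are a description. The distance that picked the genes also holds that step. Like differences between a paralog and its nearest genes thus follow from the choice, and nothing is read from them.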

How the data were processed

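The authors deposited raw threshold cycles, a score with no normalization, for each well of 6 plates. Per the file headers they were read with SDS 2.3 under an automatic baseline and a manual threshold of 0.2. A deposited table gave the authors' group mean delta Ct (a score), the ratio or fold of NOD1 over control and a p-value. For this report a ceiling of 35 was put on the Ct, undetermined wells included, and the level of a gene was the plate mean Ct of ACTB, GAPDH and Tuba1 minus its Ct, which matched the authors' delta Ct to 3.55e-15 cycles. A gene was kept when 1 group or both had a Ct under 35 in every plate (319 of 326). Groups were compared with limma 3.58.1 in R 4.3.3, two-sided, with Benjamini-Hochberg adjustment over the kept genes. The script was tested on simulated data. Alternatives changed the scaling, the ceiling, the filter, the test, the replicate block and the plates used. The members and lists were chosen with earlier results of these data known. Named genes were the paralogs, the references, nod1, other Toll-like receptors past the threshold, the relay and output genes on the plate, and the 3 nearest in pattern to each paralog. 1 run of PCR per gene and plate limits the precision.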

Additional observations from a re-analysis of the deposited data

How the results depend on the processing

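A ceiling of 40 cycles and values over 35 missing could not change the paralog differences, since no paralog or reference well was near 35. Main differences were 0.056 for TLR4a, -0.80 for TLR4ba and 2.43 for TLR4bb on the log2 scale. In that order they were -0.46, -1.32 and 1.91 when scaled to the global median, -0.42, -1.28 and 1.95 to the global mean, -0.60, -1.46 and 1.78 on raw Ct, 0.54, -0.32 and 2.92 with 18S rRNA added, -0.95, -1.86 and 2.04 with cyclic loess, and -1.07, -1.82 and 1.94 with quantile scaling. TLR4a and TLR4bb were -0.13 and 2.25 with ACTB alone and 0.27 and 2.65 with GAPDH alone. The changes of TLR4bb minus TLR4a and of TLR4bb minus TLR4ba were 2.99 and 3.90 with cyclic loess and 3.01 and 3.76 with quantile scaling, which move genes of different Ct differently. Without single plates TLR4a ranged from -0.012 to 0.15, TLR4ba from -0.98 to -0.69, TLR4bb from 2.29 to 2.53, TLR4bb minus TLR4a from 2.26 to 2.48, TLR4bb minus TLR4ba from 3.16 to 3.29 and TLR4ba minus TLR4a from -1.01 to -0.75. In control plates TLR4bb minus TLR4a ranged from 0.38 to 0.51 without single plates, an alternative chosen after seeing the data.

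Of 319 genes, 118 were higher and 49 lower. With GAPDH alone 26 were lower, with the global median 114 and with the global mean 115. Higher and lower counts were 71 and 134 on raw Ct, 195 and 18 with 18S rRNA added and 59 and 78 with quantile scaling, and the higher count was 66 with cyclic loess. Without single plates they ranged from 95 to 115 and from 31 to 45. Other Toll-like receptors numbered 6 higher and 3 lower. The higher count was 3 with the global mean, global median and raw Ct and 2 with quantile and cyclic loess scaling. The lower count was 1 with B2M added, 18S rRNA added or GAPDH alone and 5 on raw Ct. Without single plates the counts ranged from 4 to 6 and from 1 to 3. TLR4 relay genes numbered 6 higher and 4 lower. They were 2 and 14 when scaled to the global mean or median, 2 and 15 on raw Ct, 15 and 0 with 18S rRNA added, 3 and 8 with cyclic loess and 3 and 9 with quantile scaling. The lower count was 2 with B2M added and with the authors' deposited p-values and 1 with GAPDH alone. With a ceiling of 40 cycles and with no filter 5 relay genes were higher and 3 lower. At that ceiling SARM1 and MAP3K7IP1 were not called (limma adjusted p = 0.0511 and 0.0525). Without single plates the counts ranged from 3 to 7 and from 1 to 3.

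Some named genes changed sign under a scaling. TLR3 was -0.057 with quantile and -0.11 with cyclic loess, TLR9 -0.19 and -0.33, and IRF3 -0.19 and -0.078. NFKB1 was -0.098 on raw Ct, and was called lower at -0.67 with quantile and -0.62 with cyclic loess. TLR22 was -0.024 with quantile, and IKBKG 0.070 with 18S rRNA added. The cause was not tested.

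Deviations of same-numbered plates from their group means correlated at 0.11, 0.031 and -0.022 over 319 genes. The best match of NOD1 replicates 1, 2 and 3 was control replicate 1, 3 and 2. With 3 plates in each group, these values cannot settle whether the replicate numbers pair the plates. With the replicate block 4 relay genes were higher and 2 lower (NFKB1 adjusted p = 0.0528, IRF3 0.0540, IKBKG 0.109, SARM1 0.0989), 6 other receptors were higher and 2 lower (TLR5a 0.0702), and 111 genes in all were higher and 40 lower.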
